A study of Mus musculus with 8 samples.

Results

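The genes of mitochondrial fatty acid oxidation were described in lung macrophages of mice with and without a CD11c-driven deletion of PPARγ, at day 2 and at day 11 after birth. A list of 39 gene symbols was chosen by what the encoded proteins do, with earlier results of these data known. A symbol was kept where a probe set of the array carried it as its single symbol. This held for 35 of the 39 symbols, among 18782 genes tested. Acsl1 had no entry, and Acsl3, Cpt1b and Acadvl stood only on probe sets with several symbols, so these 4 were not analysed here. The 35 genes were grouped by their step in the pathway, with 4 in uptake and activation, 5 in the carnitine shuttle, 9 acyl-CoA dehydrogenases, 6 in hydration, the second oxidation and thiolysis, 3 for unsaturated fatty acids, 3 in electron transfer and 5 thioesterases and uncoupling genes.

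The series used Affymetrix arrays on sorted cells, with 8 arrays in 4 groups of 2. Control mice were PPARg fl/fl, with the gene flanked by recombination sites and no recombinase. Knockout mice were CD11cCre/PPARg fl/fl, in which a recombinase driven from CD11c removes the flanked part in cells that express CD11c, and all mice were on a C57BL/6 background. Each array held RNA of cells pooled from 2 mice. Day 2 cells, named pre-alveolar macrophages by the labels, were CD45+ and F4/80+ with high CD11c, and were either intermediate in Siglec-F and CD11b or low in Siglec-F and high in CD11b. How these gates fell on the genotypes at day 2 is not stated. Day 11 cells, named mature alveolar macrophages, were CD45+ and Siglec-F+ with high CD11c and high autofluorescence, and were CD11b low in controls and CD11b high in knockouts. Deletion and sort gate therefore cannot be told apart in any comparison of genotypes below. In pooled cells of this kind, fewer cells of a type and less RNA per cell cannot be told apart either.

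Fatty acid oxidation breaks fatty acids down to acetyl-CoA inside mitochondria. A fatty acid is taken up and joined to coenzyme A, passes the mitochondrial membranes as acylcarnitine, and is then shortened by repeated rounds of oxidation, hydration, a second oxidation and thiolysis, with the electrons passed to the respiratory chain. Alveolar macrophages clear surfactant, which is rich in phospholipid, and PPARγ is a lipid-activated nuclear receptor that they need to develop.

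The labels were checked against marker genes. Pparg itself, on a probe set that may lie outside the deleted part (its position is not stated), had log2 signals of 10.89 and 11.01 in day 2 controls, 10.55 and 10.74 in day 2 knockouts, 11.18 and 11.13 in day 11 controls and 11.32 and 11.36 in day 11 knockouts, so it does not check the deletion. The gate gene Itgam, which encodes CD11b, was 8.28-fold higher in knockouts at day 2 and 22.5-fold higher at day 11, and Siglecf was 5.98-fold and 4.07-fold lower. The summed linear signal of 12 alveolar macrophage markers was 22676 to 23206 in day 2 controls, 14337 to 16283 in day 2 knockouts, 32669 to 32735 in day 11 controls and 21110 to 22969 in day 11 knockouts. Of these 12 markers, 9 were called lower and 1 higher in knockouts at day 2, and 7 lower and 1 higher at day 11, with median log2 differences of -2.39 and -1.30. The 12 include Pparg and the gate genes Siglecf and Itgax, the latter encoding CD11c. The list is therefore not independent of the deletion and the gates. The sum of 10 dendritic cell markers was 2701 to 2711, 7388 to 8066, 2009 to 2194 and 4280 to 5838 in the same order, with Zbtb46, Xcr1 and Itgae below the median signal of 5.35 on every array. For 9 monocyte markers the sums were 5819 to 5897, 10104 to 10432, 4966 to 5015 and 6219 to 6481, and those of 9 neutrophil markers were 758 to 769, 2861 to 3012, 840 to 940 and 2691 to 2812. Of the dendritic cell markers 7 were called higher and 0 lower in knockouts at day 2, and 3 and 0 at day 11. Of the monocyte markers 7 were higher and 0 lower at day 2, and 3 and 1 at day 11. Of the neutrophil markers 7 were higher and 1 lower at day 2, and 2 and 2 at day 11, beside 20.1% and 18.6% of all genes called in either direction. Each sum mostly follows its brightest markers. In knockouts the brightest neutrophil marker was Mmp8, with log2 signals of 8.06 and 7.64 in day 11 controls and 11.07 and 11.09 in day 11 knockouts. At day 11 the brightest dendritic cell marker was Cd24a, at 10.45 and 10.51 in controls and 11.58 and 11.89 in knockouts. The brightest monocyte marker was Fn1, at 11.76 and 11.80, then 12.32 and 12.36. The sums of 10 interstitial macrophage markers were 3468 to 3470, 6907 to 8020, 4128 to 4253 and 3751 to 3844, of which 6 were called higher and 1 lower at day 2 and 4 higher and 1 lower at day 11. The brightest of these was Mrc1, whose log2 signal was 11.94 and 11.88 in day 11 controls and 11.46 and 11.55 in day 11 knockouts, while C1qb had 6.08 and 6.37 in day 11 controls and 8.75 and 8.59 in day 11 knockouts. All 5 eosinophil markers, 6 of 7 T and NK cell markers and 3 of 4 B cell markers were below the median signal on every array. The part of such differences in cell make-up in the results below was not tested. The pools also differed in the sex of their mice, since the log2 signal of Xist was 3.38 on control day 2 replicate 2 and 3.46 on knockout day 11 replicate 1 and 9.85 to 10.7 on the others, and the mean of 3 Y-linked genes was 4.37 on knockout day 2 replicate 1 and 6.19 to 8.32 elsewhere. Knockout day 2 replicate 1 stood apart in a list of 13 interferon response genes, whose median log2 signal was 9.31 on it and 4.55 to 5.44 on the other 7 arrays. Without that array 17 members were called between genotypes at day 2, 16 of them among the 18 called with it.

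Promoter sequence, from RefSeq on GRCm38.p6, is shown for members with large differences between the genotypes or the ages. Each run is the 250 bases before a start site, read 5′ to 3′ on the strand of the gene. Cpt2 (minus strand, chr4:107923590-107923839), Hadhb (plus strand, chr5:30155003-30155252) and Etfdh (minus strand, chr3:79628768-79629017) are shown for genes that were lower in knockouts at both ages. Slc27a1 (plus strand, chr8:71568621-71568870) is shown for a gene that was higher at both ages, at the first of its 3 listed start sites. Ucp3 (plus strand, chr7:100472741-100472990) was added after its values had been seen, for the largest difference with age. Capitals mark GGGCGG, known as the GC box, on either strand in Cpt2 and Hadhb, and AGGTCA, the hexamer to which nuclear receptors bind, in Ucp3. Neither motif stood in the Etfdh or the Slc27a1 run. Both genes are still counted below among those with a GC box, from windows of 300 bases and, for Slc27a1, all 3 start sites. The genotype runs come from the 6 largest mean differences among members called in the same direction at both ages. Of these 6, Ech1 and Acads are not printed, and their runs held 2 and 1 GC boxes and 0 AGGTCA.
Cpt2: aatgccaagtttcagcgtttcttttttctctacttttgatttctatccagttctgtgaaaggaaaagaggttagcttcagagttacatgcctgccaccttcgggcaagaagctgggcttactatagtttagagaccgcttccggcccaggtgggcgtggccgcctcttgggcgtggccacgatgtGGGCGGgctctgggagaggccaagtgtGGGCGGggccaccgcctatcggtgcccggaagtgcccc
Hadhb: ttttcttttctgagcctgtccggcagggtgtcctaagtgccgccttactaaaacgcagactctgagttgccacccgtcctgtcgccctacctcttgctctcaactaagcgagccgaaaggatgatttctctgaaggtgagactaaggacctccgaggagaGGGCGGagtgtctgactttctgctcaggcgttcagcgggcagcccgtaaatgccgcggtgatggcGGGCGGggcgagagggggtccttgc
Etfdh: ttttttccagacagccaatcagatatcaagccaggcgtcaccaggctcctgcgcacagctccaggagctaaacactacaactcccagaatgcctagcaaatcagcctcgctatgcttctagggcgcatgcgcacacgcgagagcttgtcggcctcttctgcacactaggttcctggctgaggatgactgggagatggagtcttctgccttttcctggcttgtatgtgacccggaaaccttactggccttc
Slc27a1: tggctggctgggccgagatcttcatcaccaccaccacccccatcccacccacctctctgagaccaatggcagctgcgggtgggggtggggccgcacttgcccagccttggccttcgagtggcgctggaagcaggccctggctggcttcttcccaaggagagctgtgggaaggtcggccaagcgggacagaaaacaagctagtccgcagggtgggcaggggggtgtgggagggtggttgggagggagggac
Ucp3: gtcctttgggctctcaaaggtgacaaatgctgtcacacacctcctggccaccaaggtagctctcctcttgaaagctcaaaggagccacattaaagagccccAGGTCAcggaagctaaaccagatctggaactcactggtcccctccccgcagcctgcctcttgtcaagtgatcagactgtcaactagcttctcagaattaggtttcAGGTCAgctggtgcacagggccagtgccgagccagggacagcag
The Hadhb run also lies before Hadha, because both genes start head to head with 272 bases between their start sites, at 30154980 for Hadha and 30155253 for Hadhb. The encoded proteins are the subunits of 1 complex, the mitochondrial trifunctional protein.

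Windows of 300 bases, from 250 before to 50 after a start site, were found for 29 of the 35 members, 31 windows in all, and were searched on both strands for letters bound by factors known in this pathway. Crat, Acad9, Acaa2, Acat1, Decr1 and Acot13 had no window. The direct repeat AGGTCANAGGTCA, the form to which PPAR and RXR pairs bind, stood in 0 members, and in 0.0396% of all 32851 windows in the table. With the fourth base of each hexamer free, AGGNCANAGGNCA stood in 0 members and in 0.381% of all windows. The hexamer AGGTCA alone, which is part of the first of these forms, stood in 5 members (Acadm, Cpt1a, Cpt1c, Echs1 and Ucp3). This was 5 of the 31 member windows, against 16.3% of all windows. TCAAGGTCA, a site of ERR receptors, stood in 0 members and in 0.423% of windows. These results say only that the letters are not in these windows. GC boxes stood in 22 of the 29 members, in 23 of their 31 windows, and in 35.7% of all windows. The median GC content was 58.7% in the members' windows and 52.7% in all windows. The median count of the base pair step CG was 17 in the members' windows and 7 in all windows. The GC box was chosen as a motif after values had been seen, and a match is a description of the letters, not of a bound site.

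In the comparison of genotypes at day 2, 18 of the 35 members differed (limma, Benjamini-Hochberg adjusted p under 0.05 over all 18782 genes), with 14 lower and 4 higher in knockouts. Of all genes, 20.1% were called, 11.2% lower and 8.86% higher. The median log2 difference, knockout minus control, was -0.17 over the members and -0.03 over all genes. At day 11 16 members differed, 11 lower and 5 higher, beside 18.6% of all genes, of which 9.29% were lower and 9.34% higher. The median difference was then 0.04 over the members and -0.00 over all genes. With 2 arrays against 2, the arrays of the genotypes did not overlap in 26 members at day 2 and 31 at day 11, but this was so for 58.2% and 56.3% of all genes. Among the 10687 genes above the median signal in at least 2 arrays, 33 of them members, 35.9% were called at day 2 and 33.8% at day 11. Without 1 array the number of members called ranged from 13 to 18 at day 2 and from 9 to 16 at day 11, where the count was 10 without control day 11 replicate 2 and 9 without knockout day 11 replicate 2. The share of all genes called fell in the same settings, to 11.8% without control day 2 replicate 2, where 13 members were called, and to 12.7% and 12.9% in the 2 day 11 settings named.

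The genotype comparisons at day 2 and day 11 share no arrays. The same 10 members were lower in knockouts at both ages, 28.6% of the members against 6.04% of all genes, namely Cpt2, Acadl, Acads, Hadha, Hadhb, Acat1, Ech1, Etfa, Etfb and Etfdh. Such shares at both ages were not counted among brighter genes alone. In these 10 the log2 difference ranged from -1.08 to -0.48 at day 2 and from -0.72 to -0.30 at day 11, and it was closer to 0 at day 11 in 9 of them, with Etfdh as the exception. Of these 10, only Acadl was called for the interaction of genotype and age. In Etfb the values were -0.48 and -0.475. How often such a shift holds over all genes was not counted. Acadsb, Acsl4 and Slc27a1 were higher at both ages, 8.57% of the members against 4.91% of all genes. No member was called in opposite directions at the 2 ages. Of the rest, 14 members were called at neither age.

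**Figure D1:**
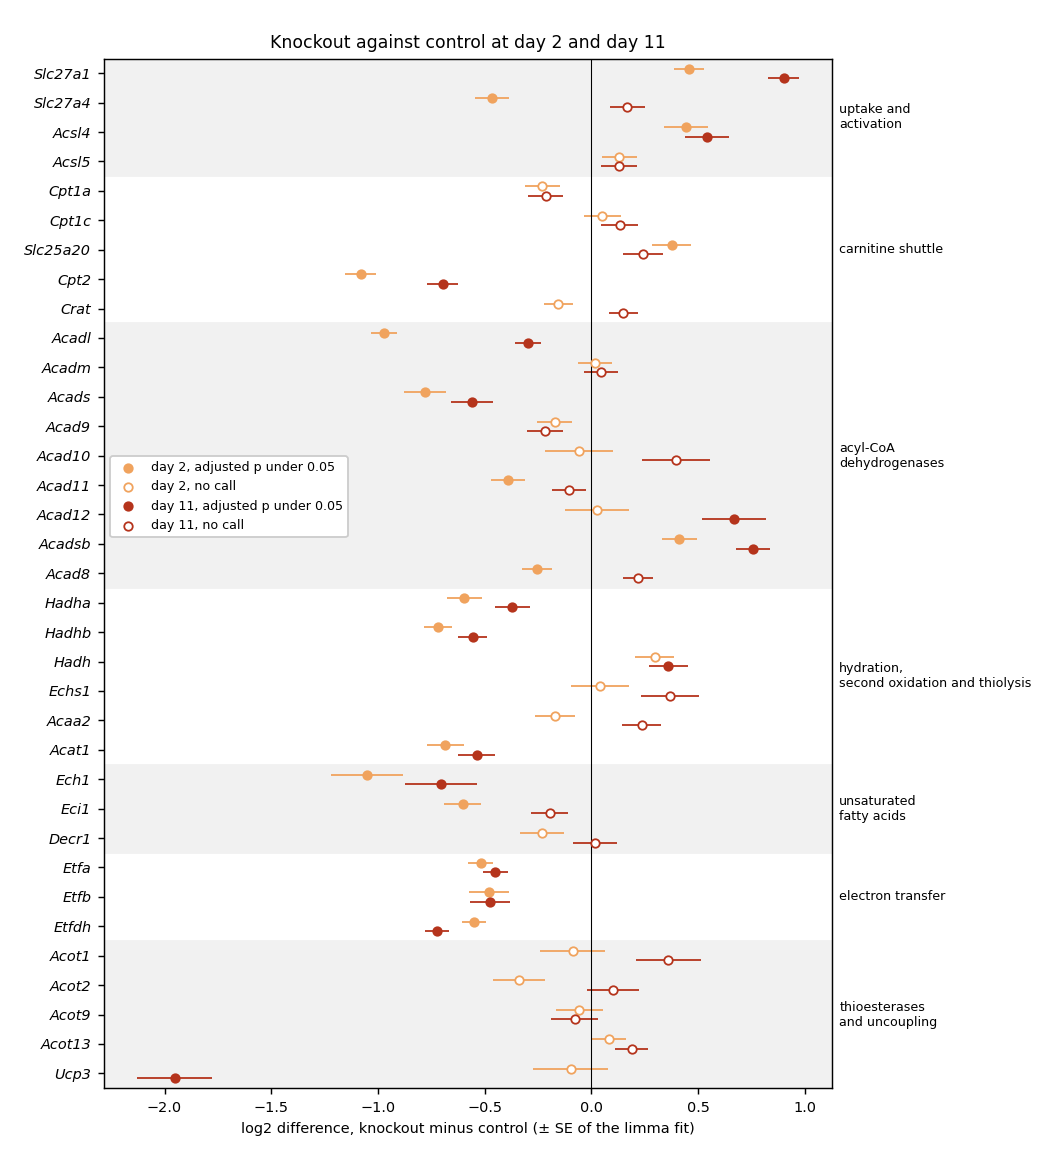
Log2 difference between knockouts and controls for each of the 35 genes, ordered by step of the pathway, at day 2 (light) and day 11 (dark), with 2 arrays per group. Points are limma estimates, bars are their standard errors and filled points have an adjusted p under 0.05; all 3 electron transfer genes lie left of 0 at both ages, and Slc27a1, Acsl4 and Acadsb lie right of 0 at both.

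In uptake and activation, 2 of 4 genes were higher in knockouts at both ages and 1 was lower at day 2. Of all genes, 4.91% were higher at both ages and 11.2% were lower at day 2. Slc27a1 encodes FATP1, a membrane protein that moves fatty acids inward and joins them to coenzyme A. Its log2 signal was 9.78 and 9.89 in day 2 controls, 10.23 and 10.36 in day 2 knockouts, 10.00 and 10.02 in day 11 controls and 10.93 and 10.89 in day 11 knockouts. Both knockout pools lay above both control pools at each age, and the day 11 knockouts were the highest of all. The log2 difference was 0.46 ± 0.07 at day 2 (SE, n = 2 per group, limma adjusted p = 0.0031) and 0.90 ± 0.07 at day 11 (adjusted p = 0.000126), or 1.37-fold and 1.87-fold. Whether it differed between the ages was tested by the interaction, 0.44 ± 0.10, which did not pass (limma adjusted p = 0.067).

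Acsl4, an acyl-CoA synthetase that prefers arachidonic acid, had log2 signals of 9.67 and 9.62 in day 2 controls, 10.22 and 9.97 in day 2 knockouts, 9.59 and 9.67 in day 11 controls and 10.07 and 10.27 in day 11 knockouts. The groups did not overlap between genotypes, but the knockout pools of each age differed from each other more than the control pools did. The knockouts were higher by 1.36-fold at day 2 (0.44 ± 0.10, limma adjusted p = 0.0187) and by 1.46-fold at day 11 (0.54 ± 0.10, adjusted p = 0.00802). The day 2 call was lost without control day 2 replicate 1 (0.0727), control day 2 replicate 2 (0.108) or knockout day 2 replicate 1 (0.0841), and with the sex of the pools in the model (0.0597). The day 11 call was lost without control day 11 replicate 1 (0.0636) or knockout day 11 replicate 2 (0.053).

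Slc27a4 encodes FATP4, a relative of FATP1. Its log2 signal was 8.91 and 8.96 in day 2 controls, 8.50 and 8.44 in day 2 knockouts, 8.16 and 8.27 in day 11 controls and 8.29 and 8.48 in day 11 knockouts. The day 2 controls stood above the other 3 groups, which lay close together. The gene was 1.38-fold lower in knockouts at day 2 (-0.47 ± 0.08, limma adjusted p = 0.00499) and not called at day 11 (0.17 ± 0.08, adjusted p = 0.219). Acsl5, which activates long-chain fatty acids, lay between 9.50 and 9.76 on all 8 arrays and was not called in any comparison.

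In the carnitine shuttle 1 gene carried a large difference. Cpt2, the inner membrane enzyme that hands the acyl group back from carnitine to coenzyme A, had log2 signals of 8.96 and 8.99 in day 2 controls, 7.85 and 7.94 in day 2 knockouts, 8.84 and 8.75 in day 11 controls and 8.16 and 8.04 in day 11 knockouts. All 4 control arrays stood above all 4 knockout arrays, and the gap was wider at day 2. Cpt2 was 2.12-fold lower in knockouts at day 2 (-1.08 ± 0.07, limma adjusted p = 5.2e-05) and 1.62-fold lower at day 11 (-0.70 ± 0.07, adjusted p = 0.000424), the largest fall of any member at day 2. The interaction was 0.39 ± 0.10 (limma adjusted p = 0.105).

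The other shuttle genes showed smaller differences. Cpt1a, the outer membrane enzyme at which malonyl-CoA controls entry, had log2 signals of 10.99 and 11.08 in day 2 controls and 10.72 and 10.89 in day 2 knockouts, and of 11.24 and 11.10 and of 10.93 and 10.98 at day 11. Its knockout pools lay below the control pools at each age, but neither difference passed the test (-0.23 ± 0.08, limma adjusted p = 0.0989, and -0.21 ± 0.08, adjusted p = 0.129). Slc25a20, the carrier that exchanges acylcarnitine for carnitine, was 1.30-fold higher in knockouts at day 2 (0.38 ± 0.09, limma adjusted p = 0.0248) and not called at day 11 (0.24 ± 0.09, adjusted p = 0.125). Its call was lost without control day 2 replicate 2 (0.155) or knockout day 2 replicate 2 (0.107), with only the day 2 groups in the fit (0.0806) and with sex in the model (0.0811). Cpt1c, a form known from the brain, lay between 4.70 and 5.01 on all arrays, below the median signal, and was not called. Crat, which moves acetyl groups between carnitine and coenzyme A, was not called between genotypes at either age.

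Among the 9 acyl-CoA dehydrogenases, which take the first pair of electrons from the acyl chain, the enzymes named for long and for short chains were lower in knockouts at both ages, and the enzyme for medium chains was not called at either. Acadl, the long-chain enzyme, had log2 signals of 9.55 and 9.49 in day 2 controls, 8.54 and 8.55 in day 2 knockouts, 9.07 and 9.08 in day 11 controls and 8.81 and 8.75 in day 11 knockouts. The knockouts lay below the controls at each age, and the 2 genotypes were nearer to each other at day 11. The difference was -0.97 ± 0.06 at day 2 (1.96-fold, limma adjusted p = 3.74e-05) and -0.30 ± 0.06 at day 11 (1.23-fold, adjusted p = 0.0115). The day 11 call was lost without control day 11 replicate 1 (0.0643), control day 11 replicate 2 (0.0599) or knockout day 11 replicate 2 (0.0702).

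Acads, the short-chain enzyme, had log2 signals of 9.81 and 9.97 in day 2 controls, 9.05 and 9.17 in day 2 knockouts, 9.52 and 9.54 in day 11 controls and 9.10 and 8.85 in day 11 knockouts. No knockout pool reached a control pool of either age. The gene was 1.72-fold lower at day 2 (-0.78 ± 0.10, limma adjusted p = 0.00108) and 1.47-fold lower at day 11 (-0.56 ± 0.10, adjusted p = 0.006). Acadm, the medium-chain enzyme, lay between 9.60 and 9.99 on the 8 arrays, and its differences were 0.02 ± 0.08 at day 2 (limma adjusted p = 0.924) and 0.04 ± 0.08 at day 11 (adjusted p = 0.801). The differences of Acadl and Acads from Acadm were not tested. Acadvl, the very-long-chain enzyme, was among the genes not analysed here.

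The dehydrogenases Acadsb and Acad8 act in branched-chain amino acid breakdown. Acadsb, which acts on isoleucine products, had log2 signals of 7.33 and 7.46 in day 2 controls, 7.75 and 7.86 in day 2 knockouts, 7.63 and 7.54 in day 11 controls and 8.40 and 8.28 in day 11 knockouts. Knockouts stood above controls at each age, most at day 11. They were higher by 1.33-fold at day 2 (0.41 ± 0.08, limma adjusted p = 0.00923) and by 1.69-fold at day 11 (0.76 ± 0.08, adjusted p = 0.00048), the day 2 call being lost without control day 2 replicate 1 (0.0679). Acad8, which acts on valine products, had log2 signals of 7.60 and 7.55, then 7.30 and 7.33 in day 2 controls and knockouts, and 7.47 and 7.32, then 7.62 and 7.60 at day 11. Knockouts lay below controls at day 2 and above them at day 11, with a difference of -0.26 ± 0.07 at day 2 (limma adjusted p = 0.0374) and 0.22 ± 0.07 at day 11 (adjusted p = 0.0733). The day 2 call of Acad8 was lost without any 1 of the day 2 arrays (0.0922 to 0.166) or either day 11 knockout (0.0567 without each), and in 3 of the 7 other settings.

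The remaining dehydrogenases are less well known. Acad11 was 1.31-fold lower in knockouts at day 2 (-0.39 ± 0.08, limma adjusted p = 0.00972) and not called at day 11 (-0.10 ± 0.08, adjusted p = 0.455), and the day 2 call was lost without control day 2 replicate 2 (0.075). Acad12 had log2 signals of 4.18 and 4.45 in day 2 controls, 4.26 and 4.42 in day 2 knockouts, 4.85 and 4.83 in day 11 controls and 5.29 and 5.73 in day 11 knockouts, so that only 1 array rose above the median signal. Its day 11 difference was 0.67 ± 0.15 (limma adjusted p = 0.0171), lost without control day 11 replicate 1 (0.0843), control day 11 replicate 2 (0.0886) or knockout day 11 replicate 2 (0.0705). Acad10, its close relative, ranged from 4.96 to 5.79, and signal that probes may share between these 2 genes cannot be told apart here. Acad9, also an assembly factor of respiratory complex I, ranged from 7.30 to 7.69. Neither of the last 2 was called in any comparison.

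**Figure D2:**
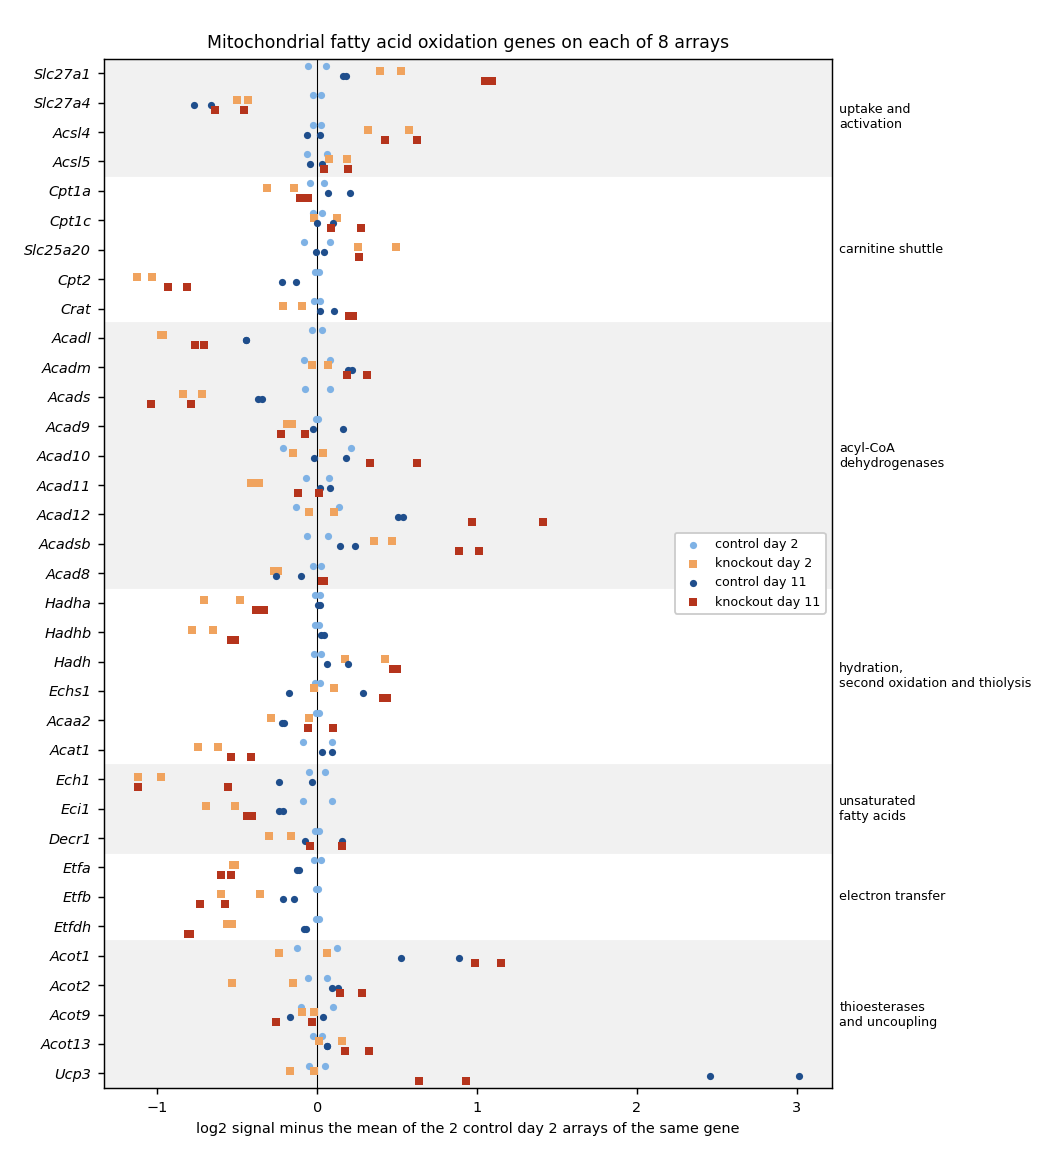
Log2 signal of each of the 35 genes on each of the 8 arrays, minus the mean of the 2 day 2 control arrays of the same gene; circles are control pools and squares are knockout pools, light at day 2 and dark at day 11. The day 2 knockouts lie left of 0 for Cpt2, Acadl, Acads and Ech1, and the 2 day 11 controls of Ucp3 lie far to the right.

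In hydration, the second oxidation and thiolysis, both subunits of the trifunctional protein were lower in knockouts at both ages. Hadha, the subunit with the hydratase and dehydrogenase sites, had log2 signals of 10.62 and 10.65 in day 2 controls, 9.93 and 10.15 in day 2 knockouts, 10.65 and 10.64 in day 11 controls and 10.30 and 10.25 in day 11 knockouts. Hadhb, the thiolase subunit, had 9.49 and 9.52, 8.72 and 8.85, 9.53 and 9.55, and 8.99 and 8.97 in the same order. In both genes the 4 control arrays lay within a narrow band and all 4 knockout arrays lay below it. Hadha was 1.51-fold lower at day 2 (-0.60 ± 0.08, limma adjusted p = 0.00153) and 1.29-fold lower at day 11 (-0.37 ± 0.08, adjusted p = 0.0156). Hadhb was 1.65-fold lower (-0.72 ± 0.07, limma adjusted p = 0.000228) and 1.47-fold lower (-0.56 ± 0.07, adjusted p = 0.000814), and a second probe set with this symbol gave differences of -0.73 and -0.56. Probe positions are not stated, so whether each probe set lies in Hadhb itself is not known. These are the 2 genes that start head to head around the sequence printed above. The day 11 call of Hadha was lost without control day 11 replicate 1 (0.0859) or 2 (0.0734) and without knockout day 11 replicate 1 (0.0518) or 2 (0.0837).

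Hadh, Echs1 and Acaa2, which encode separate enzymes for these reactions, were called lower in knockouts at neither age. Hadh, the hydroxyacyl-CoA dehydrogenase for shorter chains, had log2 signals of 9.98 and 10.02 in day 2 controls, 10.17 and 10.42 in day 2 knockouts, 10.06 and 10.19 in day 11 controls and 10.50 and 10.47 in day 11 knockouts. Knockouts stood above controls at each age, and the difference was 0.30 ± 0.09 at day 2 (limma adjusted p = 0.0593) and 0.36 ± 0.09 at day 11 (adjusted p = 0.0301). The day 11 call was lost without any 1 of the 4 day 11 arrays (0.0595 to 0.181), without either day 2 control (0.055 without each) and with sex in the model (0.0784). Echs1, the short-chain enoyl-CoA hydratase, and Acaa2, the thiolase that ends a round, were not called in any comparison, with differences of 0.04 ± 0.14 and -0.17 ± 0.09 at day 2 and of 0.37 ± 0.14 and 0.23 ± 0.09 at day 11.

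Acat1, the mitochondrial acetoacetyl-CoA thiolase of ketone body and isoleucine breakdown, had log2 signals of 10.17 and 10.35 in day 2 controls, 9.51 and 9.64 in day 2 knockouts, 10.35 and 10.29 in day 11 controls and 9.85 and 9.72 in day 11 knockouts. Every knockout array lay below every control array. It was 1.61-fold lower at day 2 (-0.68 ± 0.09, limma adjusted p = 0.00108) and 1.45-fold lower at day 11 (-0.54 ± 0.09, adjusted p = 0.00378).

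Of the 3 enzymes that prepare unsaturated fatty acids for the cycle, 2 were lower in knockouts at day 2 and 1 at day 11. Of all genes 11.2% and 9.29% were lower. Ech1, which moves paired double bonds of the chain, had log2 signals of 10.77 and 10.87 in day 2 controls, 9.70 and 9.84 in day 2 knockouts, 10.58 and 10.79 in day 11 controls and 10.26 and 9.70 in day 11 knockouts. The knockouts lay below the controls at both ages, but the 2 day 11 knockout pools were far apart. The gene was 2.07-fold lower at day 2 (-1.05 ± 0.17, limma adjusted p = 0.00332) and 1.63-fold lower at day 11 (-0.71 ± 0.17, adjusted p = 0.0225). The day 11 call was lost without control day 11 replicate 1 (0.0614), control day 11 replicate 2 (0.135) or knockout day 11 replicate 2 (0.0612). Eci1, which shifts a single double bond into the position the cycle needs, had log2 signals of 8.29 and 8.11, then 7.50 and 7.68 at day 2, and of 7.96 and 7.99, then 7.79 and 7.76 at day 11, controls first. It was 1.52-fold lower in knockouts at day 2 (-0.60 ± 0.09, limma adjusted p = 0.00198), and at day 11 the difference was -0.20 ± 0.09 (adjusted p = 0.184). Decr1, the dienoyl-CoA reductase, ranged from 6.76 to 7.22 and was not called.

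Electron transfer was the step in which each member, 3 of 3, was lower in knockouts at both ages, beside 6.04% of all genes. Etfa and Etfb encode the subunits of the flavoprotein that takes electrons from the acyl-CoA dehydrogenases, and Etfdh encodes the enzyme that hands them to ubiquinone. Etfa had log2 signals of 8.75 and 8.79 in day 2 controls, 8.26 and 8.24 in day 2 knockouts, 8.64 and 8.65 in day 11 controls and 8.16 and 8.23 in day 11 knockouts. Etfb had 11.28 and 11.27, 10.67 and 10.92, 11.06 and 11.13, and 10.70 and 10.54 in the same order. Etfdh had 9.13 and 9.11, 8.55 and 8.59, 9.05 and 9.04, and 8.32 and 8.31. In Etfa, Etfb and Etfdh alike, no knockout array reached any control array, and the replicates of Etfdh lay close together in each group.

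Etfa was 1.43-fold lower at day 2 (-0.52 ± 0.06, limma adjusted p = 0.000679) and 1.37-fold lower at day 11 (-0.45 ± 0.06, adjusted p = 0.00142). Etfb was 1.39-fold lower at day 2 (-0.48 ± 0.10, limma adjusted p = 0.00972) and 1.39-fold lower at day 11 (-0.47 ± 0.10, adjusted p = 0.0107). Etfdh was 1.46-fold lower at day 2 (-0.55 ± 0.06, limma adjusted p = 0.000412) and 1.65-fold lower at day 11 (-0.72 ± 0.06, adjusted p = 0.000114). Their interactions of genotype and age were 0.07 ± 0.08, 0.01 ± 0.14 and -0.17 ± 0.08, and none passed the test (limma adjusted p of 0.753, 0.991 and 0.328). The Etfb calls were lost without control day 2 replicate 1 (0.0588) or 2 (0.0589) at day 2, and without control day 11 replicate 2 (0.0718) or knockout day 11 replicate 2 (0.0705) at day 11.

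Among the thioesterases, which release free fatty acid from coenzyme A, and the uncoupling gene, 0 of 5 differed between genotypes at day 2. At day 11 it was 1 of 5, or 20%. Of all genes 20.1% were called at day 2 and 18.6% at day 11, so the step was near or below these shares. Ucp3 encodes an inner membrane carrier that is known to follow fatty acid supply in muscle. Its log2 signal was 4.99 and 5.09 in day 2 controls, 4.87 and 5.02 in day 2 knockouts, 8.06 and 7.50 in day 11 controls and 5.68 and 5.97 in day 11 knockouts. The day 11 controls stood far above the other 6 arrays, and all 4 day 2 arrays were below the median signal, where whether they exceed background was not tested. At day 11 Ucp3 was 3.87-fold lower in knockouts (-1.95 ± 0.18, limma adjusted p = 0.000211), and at day 2 the difference was -0.10 ± 0.18 (adjusted p = 0.772). Acot1, Acot2, Acot9 and Acot13 were not called between genotypes at either age, the differences ranging from -0.34 ± 0.12 for Acot2 at day 2 (adjusted p = 0.0941) to 0.36 ± 0.15 for Acot1 at day 11 (adjusted p = 0.165). Acot1 and Acot2 are near-identical in sequence, so signal shared between their probes cannot be told apart.

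Between day 2 and day 11 in controls, 4 of 35 members changed, 2 higher and 2 lower, beside 5.3% of all genes, 2.81% higher and 2.49% lower. This comparison shares its day 2 and day 11 control arrays with the genotype comparisons, and the median change was 0.04 over the members and -0.01 over all genes. The signal of Ucp3 rose 6.66-fold (2.73 ± 0.18, limma adjusted p = 0.000339), a fold that can be too small because its day 2 signals were not tested against background. Slc27a4 was 1.65-fold lower at day 11 (-0.72 ± 0.08, limma adjusted p = 0.00325) and Acadl 1.36-fold lower (-0.44 ± 0.06, adjusted p = 0.00748). Acot1, the cytosolic thioesterase, rose 1.63-fold (0.71 ± 0.15, limma adjusted p = 0.0395), from 6.59 and 6.84 to 7.60 and 7.24. The other 31 members were not called. Without control day 2 replicate 1, control day 11 replicate 1 or control day 11 replicate 2 the count was 2, the Acadl call being lost with adjusted p-values of 0.0699, 0.0632 and 0.0522 and that of Acot1 with 0.211, 0.204 and 0.0571. Of all genes 1.24%, 1.34% and 1.84% were then called. The Acot1 call was also lost without control day 2 replicate 2 (0.0993), without either day 11 knockout (0.053 without each) and with a replicate block (0.0568).

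In knockouts 11 members changed with age, 10 higher and 1 lower at day 11, beside 15.5% of all genes, 8.81% higher and 6.71% lower. The median change was 0.21 over the members and 0.01 over all genes. The signal of Acad12 rose 2.24-fold (1.16 ± 0.15, limma adjusted p = 0.00232) and Acot1 2.23-fold (1.15 ± 0.15, adjusted p = 0.00263), Acot1 lying at 6.48 and 6.78 at day 2 and at 7.86 and 7.70 at day 11. The folds of Acad12 and Ucp3 start from day 2 signals below the median, not tested against background. Slc27a1 rose 1.53-fold (0.61 ± 0.07, limma adjusted p = 0.00165) and Acadsb 1.45-fold (0.54 ± 0.08, adjusted p = 0.0046). These 4 calls held in every setting that could be fitted. Ucp3 rose 1.84-fold (0.88 ± 0.18, limma adjusted p = 0.014), Acot2, the mitochondrial thioesterase, 1.46-fold, Crat 1.29-fold, Acad11 1.26-fold, Acad8 1.23-fold and Acadl 1.17-fold, while Etfdh was 1.19-fold lower. The calls of the last 7 were each lost without 1 or more arrays, so that 4 members were called without knockout day 2 replicate 1 and 6 without knockout day 11 replicate 1 or 2, beside 8.69%, 10.7% and 8.2% of all genes. Without knockout day 2 replicate 1 the adjusted p was 0.0679 for Ucp3, 0.0637 for Acot2, 0.0606 for Crat and 0.109 for Acad11. Without knockout day 11 replicate 1 it was 0.0523 for Crat and 0.124 for Acad11, and without knockout day 11 replicate 2 it was 0.0847 for Ucp3 and 0.113 for Acot2. Acad8 and Etfdh were lost without any 1 of the 4 knockout arrays (0.0639 to 0.112 and 0.0722 to 0.098), and Acadl without any 1 of the 8 arrays (0.0585 to 0.159).

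The interaction of genotype and age, which asks whether the genotype difference at day 11 departs from that at day 2, was called in 4 of 35 members, 3 positive and 1 negative, beside 3.27% of all genes, 1.29% positive and 1.99% negative. The estimate was positive in 29 of 35 members and in 10468 of all 18782 genes, with a median of 0.23 over the members and 0.02 over all genes. The estimates of the members come from the same 8 arrays and are not independent of each other. Ucp3 had the 1 negative call, -1.86 ± 0.25 (limma adjusted p = 0.00903), lost without control day 2 replicate 1 (0.0585) and with sex in the model (0.0628). Its day 2 signals, below the median and not tested against background, enter this estimate. For Acadl the estimate was 0.68 ± 0.09 (limma adjusted p = 0.0072), and this was the only 1 of the 4 calls that held in every setting that could be fitted. For Slc27a4 it was 0.63 ± 0.11 (limma adjusted p = 0.0279), lost without either day 2 control (0.105 and 0.114), knockout day 2 replicate 1 (0.052), either day 11 control (0.114 and 0.0705) or knockout day 11 replicate 2 (0.0692), and with sex in the model (0.085). For Acad8 it was 0.47 ± 0.10 (limma adjusted p = 0.0479), lost without any 1 of the 8 arrays (0.0654 to 0.172). Without control day 2 replicate 1 only 1 member was called, and 2 were called without control day 2 replicate 2, knockout day 2 replicate 1, either day 11 control or knockout day 11 replicate 2. The share of all genes called was 1.05% without control day 2 replicate 1 and 1.14% to 2.34% in the settings with 2 members.

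**Figure D3:**
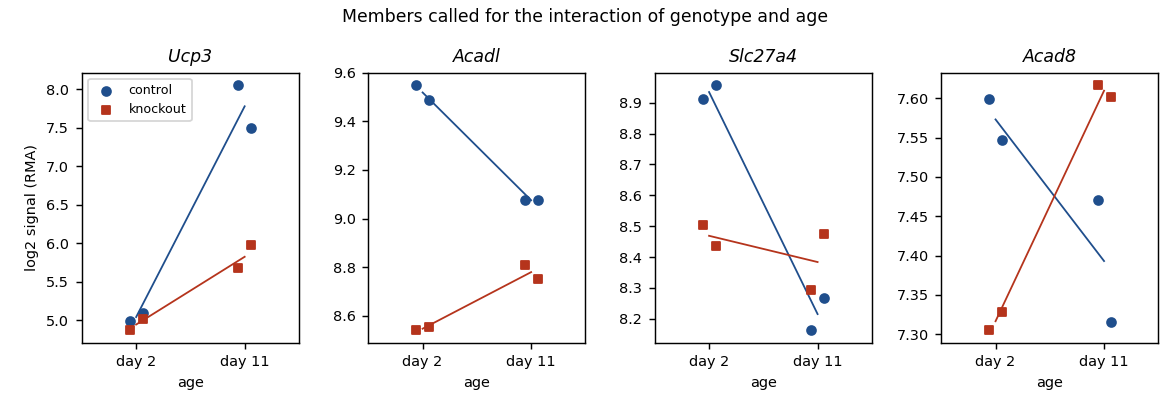
Log2 signal on each array at day 2 and day 11 for the 4 genes called for the interaction of genotype and age (Ucp3, Acadl, Slc27a4 and Acad8), with controls as circles and knockouts as squares, lines through the means of 2 arrays, and a separate vertical scale for each gene. Ucp3 parted between genotypes at day 11, Acadl was farther apart at day 2, and the means of Slc27a4 and Acad8 crossed.

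Taking the group means of each gene in order, the day 2 knockouts were the lowest of the 4 groups in 17 members, the day 2 controls in 9, the day 11 knockouts in 5 and the day 11 controls in 4. The day 11 knockouts were the highest in 16 members, the day 2 controls in 10, the day 11 controls in 7 and the day 2 knockouts in 2. The same counts were not made over all genes. Neighbours in these orders were tested only by the contrasts above, and 11 members, among them Cpt1a, Acadm, Echs1 and Acaa2, were called in none of the 5 contrasts.

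Other genes around the pathway were counted from lists of related functions. The share of all genes printed beside each list includes dim genes. Of the 10687 genes above the median signal in at least 2 arrays, 35.9% were called at day 2 and 33.8% at day 11. Of 12 genes of carnitine supply and malonyl-CoA control, 3 were lower and 2 higher in knockouts at each age, so that 41.7% were called beside 20.1% of all genes at day 2 and 18.6% at day 11. Mlycd, which breaks down malonyl-CoA, the inhibitor of Cpt1a, was 1.84-fold lower at day 2 (-0.88 ± 0.11, limma adjusted p = 0.000873) and 1.55-fold lower at day 11 (-0.64 ± 0.11, adjusted p = 0.00467). Acaca, which makes malonyl-CoA, was 1.25-fold and 1.33-fold lower, and the AMP-activated kinase subunits Prkag2 and Prkab2 were 1.33-fold and 1.45-fold higher at day 2 and 1.53-fold and 1.40-fold higher at day 11. Not all subunits of this kinase were higher. Prkaa1 had log2 signals of 9.632 and 9.673 in day 2 controls and 9.395 and 9.273 in day 2 knockouts. At day 11 it had 9.685 and 9.645, then 9.451 and 9.332. The knockout arrays of Prkag1 also lay below the control arrays at each age. Among Mlycd, Acaca, Prkag2 and Prkab2, the calls of Mlycd at both ages and of Prkag2 at day 11 held without each single array. That of Prkag2 at day 2 was lost without control day 2 replicate 2 (0.0907) or knockout day 2 replicate 2 (0.0607), and that of Acaca at day 11 without control day 11 replicate 2 (0.0816) or knockout day 11 replicate 1 (0.0758). The day 2 call of Acaca was lost without any 1 of the 4 day 2 arrays (0.0629 to 0.138). With the mean of its probe sets, Acaca was called at neither age (0.257 and 0.0706), and with sex in the model it was not called at day 2 (0.0614). Prkab2 was lost at day 2 without control day 2 replicate 1 (0.172), knockout day 2 replicate 2 (0.106) or either day 11 control (0.0533 without each), and at day 11 without any 1 of the control or day 11 knockout arrays (0.0519 to 0.189). With only the day 2 groups in the fit neither Prkag2 (0.0508) nor Prkab2 (0.0934) was called at day 2, and with sex in the model Prkag2 was not called at day 2 (0.0517), nor Prkab2 at day 11 (0.102).

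Of 16 transcriptional regulators of oxidation, 6 were lower and 1 higher in knockouts at day 2, and 1 was lower and 1 higher at day 11. This was 43.8% and 12.5% of the list, beside 20.1% and 18.6% of all genes. Lpin1, a phosphatase and coactivator, was 1.86-fold lower at day 2 (-0.90 ± 0.16, limma adjusted p = 0.0055) and not called at day 11 (-0.43 ± 0.16, adjusted p = 0.113). Nrip1, a corepressor of oxidative genes, was 1.62-fold lower at day 2 (-0.70 ± 0.11, limma adjusted p = 0.00315) and 1.49-fold lower at day 11 (-0.57 ± 0.11, adjusted p = 0.00856), the latter lost without control day 11 replicate 2 (0.0618). Ppargc1b, a coactivator, was 1.30-fold lower at day 2 (-0.38 ± 0.08, limma adjusted p = 0.0117), lost without either day 2 control (0.0525 and 0.0764) or knockout day 2 replicate 1 (0.0568), and had a difference of 0.00 ± 0.08 at day 11. Sirt5, a mitochondrial deacylase, was 1.31-fold lower at day 2 (limma adjusted p = 0.0211), lost without control day 2 replicate 2 (0.133) or knockout day 2 replicate 1 (0.103), or with only the day 2 groups in the fit (0.0669).

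The list labelled other mitochondrial acyl-CoA enzymes held 22 genes of acyl-CoA enzymes and related proteins, not all of them mitochondrial or enzymes. Of these 22, 8 were lower and 1 higher in knockouts at day 2, and 4 lower and 2 higher at day 11. This was 40.9% and 27.3% of the list, beside 20.1% and 18.6% of all genes. Echdc1, which removes ethylmalonyl-CoA, was 2.19-fold lower at day 2 (-1.13 ± 0.07, limma adjusted p = 4.57e-05) and 2.31-fold lower at day 11 (-1.21 ± 0.07, adjusted p = 3.94e-05). Acsf2, an acyl-CoA synthetase, was 2.48-fold lower at day 11 (-1.31 ± 0.14, limma adjusted p = 0.000418) beside a day 2 difference of -0.06 ± 0.14. Acss1, the mitochondrial acetyl-CoA synthetase, was 1.69-fold lower at day 2 (limma adjusted p = 0.00629) and 1.46-fold lower at day 11 (adjusted p = 0.0292), the latter lost without any 1 of the control or day 11 knockout arrays (0.0563 to 0.141). Acot7, a thioesterase, was 2.26-fold higher at day 2 (1.17 ± 0.14, limma adjusted p = 0.000744) and not called at day 11 (0.34 ± 0.14, adjusted p = 0.149). Of 8 genes of propionate and ketone body metabolism, Oxct1, which activates acetoacetate, was the 1 called, 1.33-fold higher at day 2 (limma adjusted p = 0.0489, lost without any 1 of the 4 day 2 arrays, 0.124 to 0.21) and higher by 1.64-fold at day 11 (0.71 ± 0.12, adjusted p = 0.00486), so that 12.5% of this list was called at each age.

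Peroxisomes shorten very long and branched fatty acids by parallel enzymes. Of 17 peroxisomal genes, 10 were lower and 1 higher in knockouts at day 2, and 7 lower and 1 higher at day 11, with median differences of -0.48 and -0.29. These were 64.7% and 47.1% of the list, beside 20.1% and 18.6% of all genes. Acaa1b, a peroxisomal thiolase, had log2 signals of 7.87 and 7.87 in day 2 controls, 4.89 and 4.25 in day 2 knockouts, 8.45 and 8.60 in day 11 controls and 4.50 and 4.78 in day 11 knockouts. Its knockout arrays all lay below the median signal and its control arrays well above it. The measured signal was 9.85-fold lower at day 2 (-3.30 ± 0.19, limma adjusted p = 2.43e-05) and 14.8-fold lower at day 11 (-3.88 ± 0.19, adjusted p = 1.57e-05). Whether the knockout arrays exceed background was not tested, so these folds can understate the change. Pex11a, a membrane protein of peroxisome division, was 5.59-fold and 3.59-fold lower, Hsd17b4, the bifunctional protein of the peroxisomal cycle, 1.88-fold and 2.67-fold lower, and Ehhadh, its counterpart for straight chains, 2.21-fold and 1.76-fold lower. The calls of Acaa1b, Pex11a, Hsd17b4 and Ehhadh between genotypes held in all settings at both ages. No test compared peroxisomal with mitochondrial genes.

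Downstream of oxidation, 6 of 18 citric acid cycle genes were lower in knockouts at day 2 and 4 at day 11, and 0 were higher at either age. This was 33.3% and 22.2% of the list, beside 20.1% and 18.6% of all genes. All 18 lay above the median signal on every array. Among genes above the median signal in at least 2 arrays, 35.9% and 33.8% were called, so the list was below that share at both ages. Suclg2, a succinyl-CoA ligase subunit, was 1.46-fold lower at day 2 (-0.55 ± 0.09, limma adjusted p = 0.00304) and 1.55-fold lower at day 11 (-0.63 ± 0.09, adjusted p = 0.0017). Idh3g, a subunit of isocitrate dehydrogenase, was 1.25-fold lower at day 2, a call lost without control day 2 replicate 2 (0.113), knockout day 2 replicate 1 (0.0665) or knockout day 2 replicate 2 (0.0511) or with sex in the model (0.0607), and 1.34-fold lower at day 11 (limma adjusted p = 0.00529). Pdhb of pyruvate dehydrogenase was 1.31-fold and 1.33-fold lower, lost at day 2 without control day 2 replicate 1 (0.107) or knockout day 2 replicate 2 (0.082), and at day 11 without control day 11 replicate 1 (0.0945) or knockout day 11 replicate 2 (0.0771). With the mean of its probe sets Pdhb was called at neither age (0.114 and 0.107), and with only the day 2 groups in the fit it was not called at day 2 (0.0559). Sucla2, another succinyl-CoA ligase subunit, was 1.26-fold lower at day 11, lost without control day 11 replicate 2 (0.0749) or knockout day 11 replicate 1 (0.0671).

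Mitochondrial content was followed by 23 genes of import, membrane and genome maintenance. At day 2, 4 were lower and 1 higher in knockouts, and at day 11, 0 were lower and 3 higher. This was 21.7% and 13% of the list, near or below the 20.1% and 18.6% of all genes. Polg, the mitochondrial DNA polymerase, was 1.32-fold higher at day 2 (lost without control day 2 replicate 2, limma adjusted p = 0.0634) and higher by 1.37-fold at day 11 (0.46 ± 0.08, adjusted p = 0.00416). The import genes Tomm70a and Timm44 were 1.27-fold and 1.22-fold lower at day 2, and both calls were lost without control day 2 replicate 1 (0.0882 and 0.156), control day 2 replicate 2 (0.0794 and 0.106) or knockout day 2 replicate 2 (0.0822 and 0.147), and that of Timm44 also without either day 11 knockout (0.0531 without each), with only the day 2 groups in the fit (0.0559) and with sex in the model (0.061). Slc25a4, an ADP/ATP carrier, was 1.26-fold higher at day 11 (limma adjusted p = 0.0149), lost without control day 11 replicate 2 (0.0977) or knockout day 11 replicate 2 (0.0888).

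**Figure D4:**
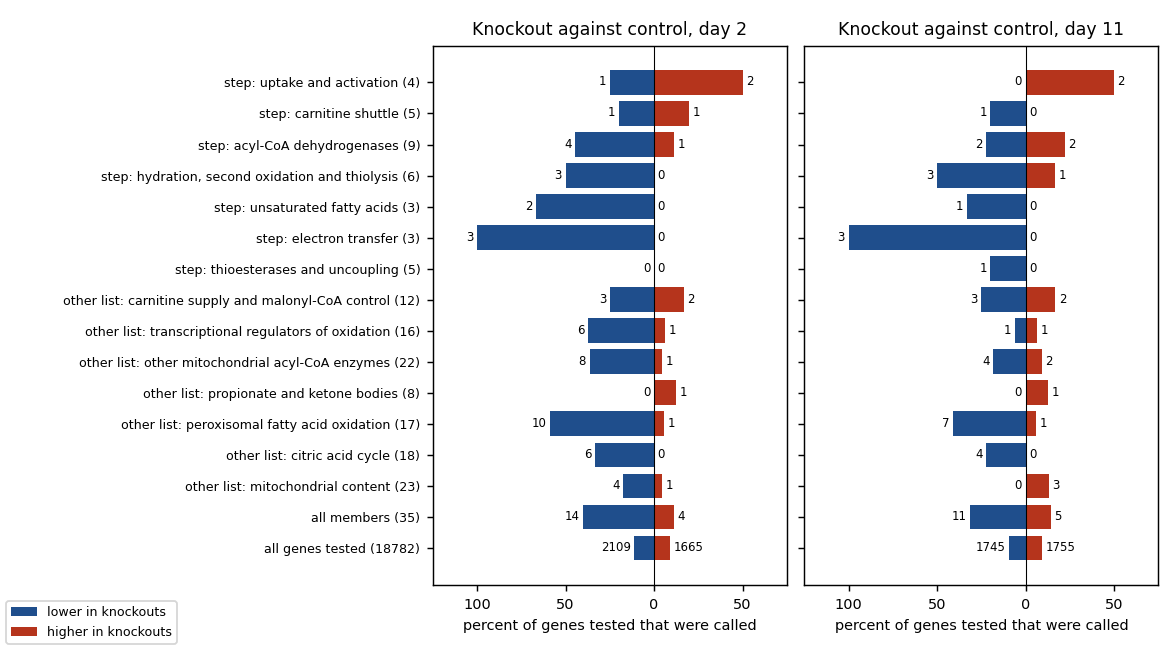
Percent of the genes of each list that were called lower (left of 0) or higher (right of 0) in knockouts at day 2 and day 11, with the number of genes called beside each bar and the number tested in brackets after the name. All 3 electron transfer genes were called lower at both ages, 10 and 7 of 17 peroxisomal genes were called lower, and the lowest bars give the 18782 genes tested.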

How the data were processed

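Lung macrophages were profiled on 8 Affymetrix arrays, 2 for each of 4 groups. The deposited values are on the log2 scale and were made by the authors, who per the submitters' processing notes ran RMA under R 2.15.2. The level of probe summary and the genome build are not stated. Scanner files were not used here. Every array has a median of 5.35, which hides any change common to all genes, and the number of arrays limits the precision.

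Of 28874 probe sets, 21159 carried 1 symbol in the platform annotation, 1881 several and 5834 had no entry, and 21129 matched RefSeq by Entrez identifier. The probe set with the highest mean was taken for the 1368 genes with several, which left 18782 genes. Limma 3.58.1 in R 4.3.3 was fitted with 1 mean per group over all 8 arrays (4 residual and 3.77 prior degrees of freedom) and no replicate block, since nothing in the labels pairs the numbers. P-values were adjusted by the Benjamini-Hochberg method over all genes of a contrast and called under 0.05, and errors are standard errors of the log2 difference. P-values measure the spread between these pools of 2 mice. Plots were made in Python 3.11.15 (matplotlib 3.10.9), and the fit was tested on simulated data.

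The members, lists and motifs were chosen with earlier results of these data known. All members were named, with up to 4 genes of each other list by the largest difference among those called in either genotype comparison. Prkaa1 and Prkag1 were named besides, as subunits of the same kinase as Prkag2 and Prkab2. The list of interferon response genes was added after values had been seen. Alternatives left out each array in turn, added a replicate block, used an intensity trend with a robust prior, fitted only the groups of a contrast, left out dim genes, averaged probe sets, set the upper 50% of genes equal between arrays, or added the sex of the pools, scored from Xist and Y-linked genes, to the model.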

Additional observations from a re-analysis of the deposited data

Results flagged for a closer look

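The genotype difference departed between the ages in 4 members, by the test of the interaction of genotype and age (limma, Benjamini-Hochberg adjusted over all genes). The estimate, the log2 difference at day 11 minus that at day 2, was -1.86 for Ucp3, 0.68 for Acadl, 0.63 for Slc27a4 and 0.47 for Acad8. Ucp3 was called lower in knockouts at day 11 alone. Its day 2 signals were below the median signal and not tested against background, so a day 2 difference could be missed. Acadl was lower at both ages and less so at day 11, and Slc27a4 and Acad8 were lower at day 2 and had positive differences without a call at day 11. No group had enough arrays to look for a single outlying one.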

How the results depend on the processing

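No member called in any of the 5 contrasts changed direction under any of the 15 alternatives. Of the members called, 12 of 18 at day 2, 9 of 16 at day 11, 2 of 4 with age in controls, 4 of 11 with age in knockouts and 1 of 4 for the interaction were called in every alternative that could be fitted. Without 1 array the count of members ranged from 13 to 18, from 9 to 16, from 2 to 4, from 4 to 11 and from 1 to 5 in the same order. In a group that lost an array, the lone one was assumed to vary like the other groups. With a replicate block the counts were 20, 16, 4, 10 and 3. Deviations of arrays with the same number correlated with r of -0.0754 to 0.25 between groups. With 2 arrays per group and nothing to set these values against, this cannot decide whether the numbers pair the arrays. For age in knockouts the count was 6 with only those groups in the fit and 4 with sex in the model, and for the interaction it was 1 with sex in the model. Over all genes, only the groups of the contrast gave 1581 calls for age in controls (996 otherwise) and 1466 for age in knockouts (2915 otherwise). Sex in the model gave 1692 for age in knockouts and 208 for the interaction (615 otherwise). The cause was not tested.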
